A study of Oryza sativa with 3 samples.

Results

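The miR160, miR167, miR390 and miR393 families were examined in small RNA libraries of rice embryos at 0, 12 and 24 hours after imbibition (HAI). All mature sequences that the table of known miRNAs assigns to these 4 families were taken, which gave 7 of the 59 known mature sequences and 13 of their 83 precursors. Together with the predicted miRNAs named OsmiR, the tables list 289 named mature sequences. The 0 HAI library came from dry seeds, and the 12 and 24 HAI libraries from seeds kept in distilled water in the dark. All seeds were de-hulled and of the cultivar Nipponbare, and the embryos were dissected by hand. Each time point has 1 library, into which the RNA of several plates was mixed, so the tables hold no replicate libraries. The tables hold miRNAs alone, so the embryo label could not be checked with marker genes.

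These families act on different components of the auxin response. Auxin binds to F-box receptors of the TIR1/AFB type, whose mRNAs are cleaved under the guidance of miR393, and the receptors then mark Aux/IAA repressors for degradation. The auxin response factors (ARFs) that are released in this way switch genes on or off. In Arabidopsis, miR160 acts on mRNAs of the repressing factors ARF10, ARF16 and ARF17, and miR167 on those of the activating factors ARF6 and ARF8. There, miR390 is loaded into AGO7 and triggers the production of small RNAs from TAS3 transcripts, which in turn act on ARF2, ARF3 and ARF4. Also in Arabidopsis, ARF10 that escapes miR160 makes germinating seeds more sensitive to abscisic acid.

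The 7 mature sequences are printed 5′ to 3′ as the deposited table spells them, with bases 2 to 8, the seed, in capitals, to show which members share these bases.
osa-miR160ab: gCGTGCAAggagccaagcatg
osa-miR160e: tGCCTGGCtccctgtatgccg
osa-miR167abc: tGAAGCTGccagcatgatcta
osa-miR167fghj: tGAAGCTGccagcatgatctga
osa-miR390: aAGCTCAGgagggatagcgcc
osa-miR393a: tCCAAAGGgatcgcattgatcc
osa-miR393b: tCCAAAGGgatcgcattgatct
The sequences fall into 5 seed groups. Both miR167 sequences share 1 seed, both miR393 sequences share another, and the miR160 sequences do not share theirs. Counted from the 5′ end, osa-miR167abc and osa-miR167fghj are equal over 20 bases and then differ by A21G, and osa-miR167fghj is 1 base longer. The miR393 sequences differ only by C22T, from osa-miR393a to osa-miR393b. The matching of reads to miRBase tolerated up to 2 mismatches, and whether sequences this close took reads from each other was not tested. Of all 289 mature sequences, 1 sequence from outside the 4 families carried a seed of theirs. This was osa-miR5150, a sequence of 24 nt with the miR167 seed. Whether it shares targets with miR167 was not tested.
osa-miR5150: aGAAGCTGcagctgtcagaagctc
The first base was T in 5 members, A in osa-miR390 and G in osa-miR160ab. In Arabidopsis, AGO1 prefers small RNAs that start with U (T in the table), and AGO7 binds miR390.

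The miR160 members came from opposite arms of their hairpins. Printed with the listed mature sequence in capitals, the precursor osa-MIR160a (chr2:3511586-3511669, minus strand, exon, in MSU 7.0) and the precursor osa-MIR160e (chr7:2216769-2216864, minus strand, exon) show where the reads were counted.
osa-MIR160a: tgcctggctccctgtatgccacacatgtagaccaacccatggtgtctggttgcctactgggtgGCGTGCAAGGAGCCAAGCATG
osa-MIR160e: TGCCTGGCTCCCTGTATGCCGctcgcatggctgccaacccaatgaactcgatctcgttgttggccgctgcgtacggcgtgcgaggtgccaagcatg
The sequence listed as osa-miR160ab is the 3p strand, at bases 64 to 84 of osa-MIR160a and of osa-MIR160b. The first 21 bases of both precursors, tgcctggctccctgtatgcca, differ from osa-miR160e by G21A alone. This 5p strand is the form of miR160 that pairs with ARF mRNAs in plants. No row of its own for this strand was analysed here, and the values of osa-miR160ab describe the opposite strand of those hairpins. Since the matching tolerated mismatches, the count of osa-miR160e may include reads of the 5p strand of osa-MIR160a and osa-MIR160b, which was not tested. All other members lay on the 5p arm, at the first base of their precursors.

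The hairpins of miR390 and miR393 were each listed at 1 position per mature sequence. They are shown because the predicted miRNA described further on lies on the 3p arm of osa-MIR393a.
osa-MIR390: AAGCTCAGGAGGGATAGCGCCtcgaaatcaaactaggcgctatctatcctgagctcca
osa-MIR393a: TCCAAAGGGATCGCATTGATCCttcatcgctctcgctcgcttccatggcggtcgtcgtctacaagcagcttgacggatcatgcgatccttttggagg
osa-MIR390 lies on chr3:34275155-34275212, minus strand, in an exon, and is the shortest of the 13 precursors at 58 nt. osa-MIR393a lies on chr1:2309157-2309253, minus strand, between genes, and osa-MIR393b on chr4:34931885-34931981, minus strand, in an exon. osa-miR167abc has 3 precursors and osa-miR167fghj has 4, and their reads cannot be assigned to a locus. Of these, osa-MIR167a (chr12:25476821-25476937) and osa-MIR167h (chr12:25480628-25480729) lie on the plus strand with 3690 bases between them, so the same stretch carries 1 hairpin for each of the miR167 sequences.
Of the 13 precursors, 8 were listed in exons and 5 between genes, against 25 and 33 of the other 70 known precursors, and none was listed in an intron, where 12 of the others lay. The minimal folding free energy index (MFEI), which relates the folding energy to length and G+C content, ranged from 0.827 to 1.20 with a median of 0.968, and the median of the other known precursors was 1.04. It was over 0.85 for 12 of the 13, and for 65 of the 70 other known precursors. The exception was osa-MIR160e, at 0.827, or 0.82 with the energy from RNAfold.

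Dividing reads by TPM gave 19203513, 22332607 and 17359816 genome-mapped reads as the denominators at 0, 12 and 24 HAI, and the 289 miRNAs held 1.48%, 2.84% and 3.40% of them. A single read was worth 0.0521, 0.0448 and 0.0576 TPM in these libraries. TPM here counts reads of 1 mature sequence per 1000000 genome-mapped reads, with no correction for length. All intervals and limits cover counting error only, since reads amplified by PCR without molecular identifiers are not independent molecules. In whole embryos, fewer cells of a type and less RNA per cell cannot be told apart.

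The 7 members spanned ranks 8 to 57 of the 59 known sequences by TPM. They held 15392 reads in dry embryos, then 35692 and, after a day, 28408. As a share of all miRNA reads this came to 5.40% (Wilson 95% interval, 5.32–5.48%), 5.63% (5.57–5.69%) and 4.81% (4.76–4.87%). miR390 and miR167 made up nearly all of it. The share of miR390 in the reads of the members was 51.2%, 55.3% and 63.5% at 0, 12 and 24 HAI, and that of miR167 was 47.4%, 42.9% and 34.9%. miR160 never exceeded 1.57% and miR393 never exceeded 0.493%.

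osa-miR390, the trigger of the TAS3 pathway, had the highest read count of the members in every library. The 0, 12 and 24 HAI libraries held 7882, 19755 and 18051 of its reads, or 410 TPM (exact Poisson 95% limits, 401–420), 885 TPM (872–897) and 1040 TPM (1025–1055). It ranked 8 of 59 known sequences in each library. osa-miR167fghj had 5360, 11822 and 7583 reads, or 279, 529 and 437 TPM, and ranked 13, 11 and 12. osa-miR167abc had 1932, 3498 and 2344 reads, or 101, 157 and 135 TPM, and ranked 16 in each library. The order of these 3 sequences was the same at every time point, and their limits did not overlap within any library.

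The miR160 and miR393 members had far fewer reads. osa-miR160e had 185, 413 and 221 reads at 0, 12 and 24 HAI, or 9.63 TPM (8.30–11.1), 18.5 TPM (16.8–20.4) and 12.7 TPM (11.1–14.5). osa-miR160ab had 2, 146 and 69 reads, or 0.104 TPM (0.0126–0.376), 6.54 TPM (5.52–7.69) and 3.97 TPM (3.09–5.03). In the 0 HAI library it lay below 0.156 TPM, the worth of 3 reads, a level that a count of 0 still allows. osa-miR393a had 16, 33 and 70 reads, or 0.833, 1.48 and 4.03 TPM. osa-miR393b had 15, 25 and 70 reads, or 0.781, 1.12 and 4.03 TPM. The limits of the miR393 sequences overlapped in each library, so their order could not be told at this depth. At 0 HAI both lay above osa-miR160ab, while at 12 HAI osa-miR160ab lay above both. At 24 HAI the limits of these 3 sequences overlapped.

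**Figure D1:**
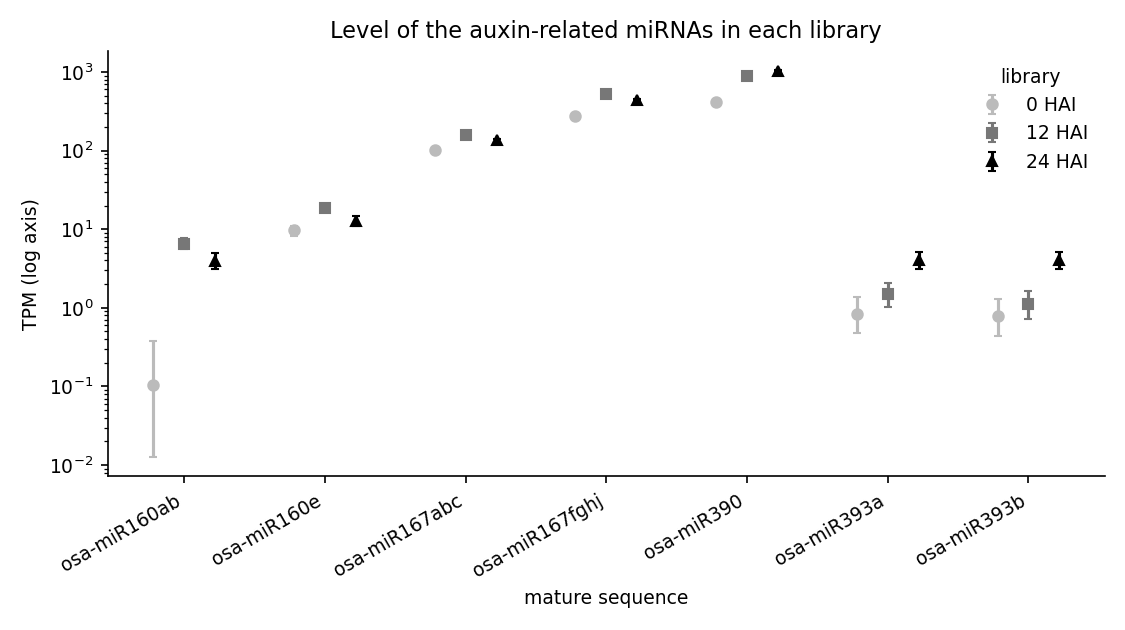
TPM (log axis) of the 7 mature sequences at 0, 12 and 24 HAI, 1 library each, with bars for exact Poisson 95% limits. osa-miR390 lies highest in every library, and osa-miR160ab moves from 0.104 TPM at 0 HAI to 6.54 TPM at 12 HAI.

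The comparison of 12 with 0 HAI asks what changed in the first hours of water uptake. In TPM, all 7 members were higher at 12 HAI, and 2 of them, osa-miR160ab and osa-miR390, were at least 2-fold higher. By this 2-fold rule, 39.2% of the 288 miRNAs with a read in either library were higher, so the members' count was near the background. The median ratio was 1.90 for the members, 1.90 for the 59 known miRNAs and 1.78 for all miRNAs. The ratio was 62.8 for osa-miR160ab (exact conditional 95% limits, 17.1–523), which rests on the 2 reads at 0 HAI and ranked 3 of the 59 known sequences. It was 2.16 for osa-miR390 (2.10–2.21), 1.92 for osa-miR160e (1.61–2.30), 1.90 for osa-miR167fghj (1.84–1.96) and 1.56 for osa-miR167abc (1.47–1.65). For osa-miR393a it was 1.77 (0.949–3.45) and for osa-miR393b 1.43 (0.727–2.92), and these limits include 1.
A two-sided exact conditional binomial test of the reads, with Benjamini-Hochberg adjustment over the 288 miRNAs, called 5 members higher. It called 49 of the 59 known miRNAs and 48.6% of all miRNAs higher. The members not called were the miR393 sequences, with adjusted p of 0.108 and 0.449 from this exact test. Such a test compares 2 libraries and not the conditions.
Most of these values turned on the scaling. Scaled by the summed miRNA reads, the TMM factors of edgeR or the size factors of DESeq2, 3, 5 and 4 of the 7 members stayed above 1, and the exact binomial test called 2, 3 and 3 higher and 1 lower each time. The member called lower was osa-miR167abc, at 0.814, 0.889 and 0.862. The ratio of osa-miR390 moved to 1.13, 1.23 and 1.19, short of 2-fold but still called higher, and osa-miR160e, at 1.004, 1.10 and 1.06, was no longer called. osa-miR160ab kept a ratio of 32.8, 35.8 and 34.8.

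Between 12 and 24 HAI the families parted. Both miR160 sequences and both miR167 sequences were lower at 24 HAI, and both miR393 sequences and osa-miR390 were higher. The ratio of 24 to 12 HAI was 0.608 for osa-miR160ab (0.450–0.815), 0.688 for osa-miR160e (0.582–0.813), 0.862 for osa-miR167abc (0.818–0.909) and 0.825 for osa-miR167fghj (0.802–0.849). It was 1.18 for osa-miR390 (1.15–1.20), 2.73 for osa-miR393a (1.78–4.26) and 3.60 for osa-miR393b (2.25–5.94). The miR393 sequences thus took ranks 7 and 5 among the 59 known sequences, from the highest ratio, whereas osa-miR160e and osa-miR160ab took ranks 54 and 56. At least 2-fold higher were 2 members, beside 13.8% of all 289 miRNAs. The exact binomial test called 3 members higher and 4 lower, beside 20.1% and 8.3% of all miRNAs. Of the 59 known miRNAs it called 29 higher and 13 lower. The median ratio of the members was 0.862, that of the 59 known miRNAs 1.13 and that of all miRNAs 1.12. For the summed family the ratio was 0.667 for miR160 (0.577–0.770), 0.834 for miR167 (0.813–0.855), 1.18 for miR390 and 3.11 for miR393 (2.27–4.29).
The directions of miR160, miR167 and miR393 held under the 3 scalings by miRNA reads. The ratio of miR160 was 0.557 relative to the summed miRNA reads, 0.584 with the TMM factors of edgeR and 0.606 with the size factors of DESeq2. That of miR167 was 0.696, 0.729 and 0.757, and that of miR393 was 2.59, 2.72 and 2.82. The ratio of miR390 moved to 0.982 with the summed miRNA reads, 1.03 with TMM and 1.07 with DESeq2.

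**Figure D2:**
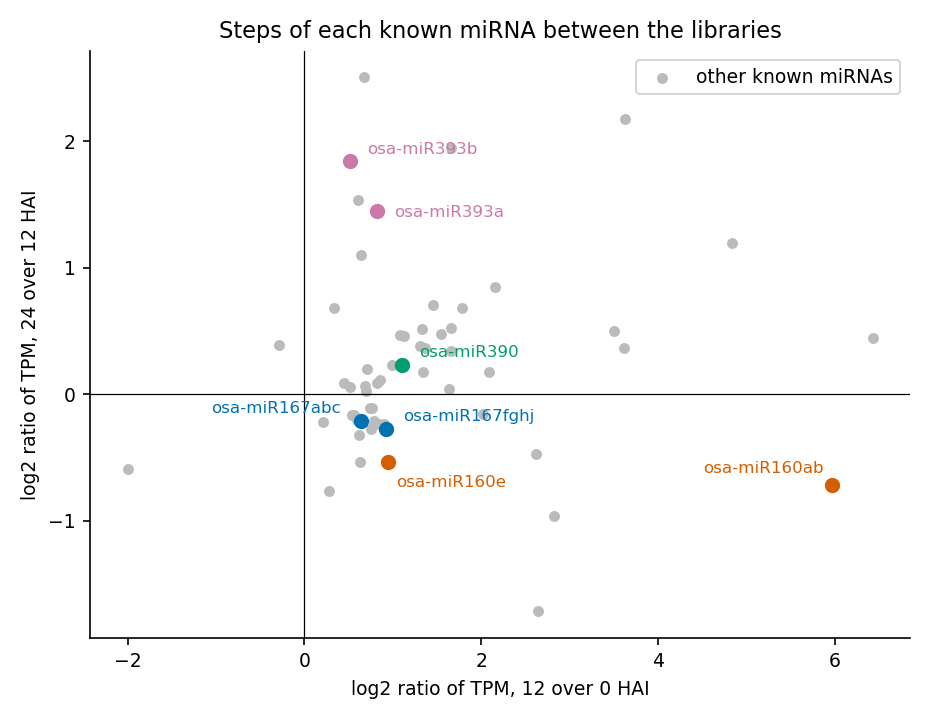
Each point is 1 of the 58 known miRNAs with a read in every library, with the log2 ratio of TPM from 0 to 12 HAI on the x axis and from 12 to 24 HAI on the y axis. The miR160 and miR167 members lie below 0 on the y axis and the miR393 members above 1, and osa-miR160ab lies far to the right at 5.97.

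Over the whole day, from 0 to 24 HAI, all 7 members had a higher TPM, and 4 were at least 2-fold higher, beside 50.5% of all miRNAs. The ratio was 38.2 for osa-miR160ab (10.2–321), 5.16 for osa-miR393b (2.93–9.71), 4.84 for osa-miR393a (2.78–8.93) and 2.53 for osa-miR390 (2.47–2.60). It was 1.56 for osa-miR167fghj (1.51–1.62), 1.34 for osa-miR167abc (1.26–1.43) and 1.32 for osa-miR160e (1.08–1.62). The median was 2.53 for the members, 2.87 for the 59 known miRNAs and 2.01 for all miRNAs. Over the 13 other class I families, the conserved ones, it was 3.05. In TPM, the exact binomial test called all 7 higher, beside 50 of the 59 known miRNAs and 52.9% of all miRNAs.
For miR160 and miR167 the direction depended on the scaling. Taking the summed miRNA reads, the TMM factors or the DESeq2 size factors as the base lowered every log2 ratio of 24 to 0 HAI by 1.20, 1.0 and 0.99. With each of them the exact binomial test called 4 members higher and 3 lower. The members called lower were osa-miR160e, osa-miR167abc and osa-miR167fghj. The ratio of miR167 was 1.51 in TPM (1.46–1.55), and 0.658, 0.752 and 0.757 under these 3 scalings. The ratio of miR160, with both sequences summed, was 1.72 in TPM (1.42–2.07), and 0.749, 0.856 (0.710–1.03) and 0.862 (0.715–1.04). The last 2 of these limits include 1. Within the summed miR160, osa-miR160e turned to 0.577, 0.660 and 0.664, and osa-miR160ab stayed above 1 at 16.7, 19.1 and 19.2. The ratio of miR393 stayed above 1, at 4.996 in TPM (3.37–7.63) and at 2.18, 2.49 and 2.51. The ratio of miR390 also stayed above 1, at 2.53 in TPM and at 1.11, 1.26 and 1.27. With no spike-in, which of the scalings is closer to the amount per embryo was not tested.

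**Figure D3:**
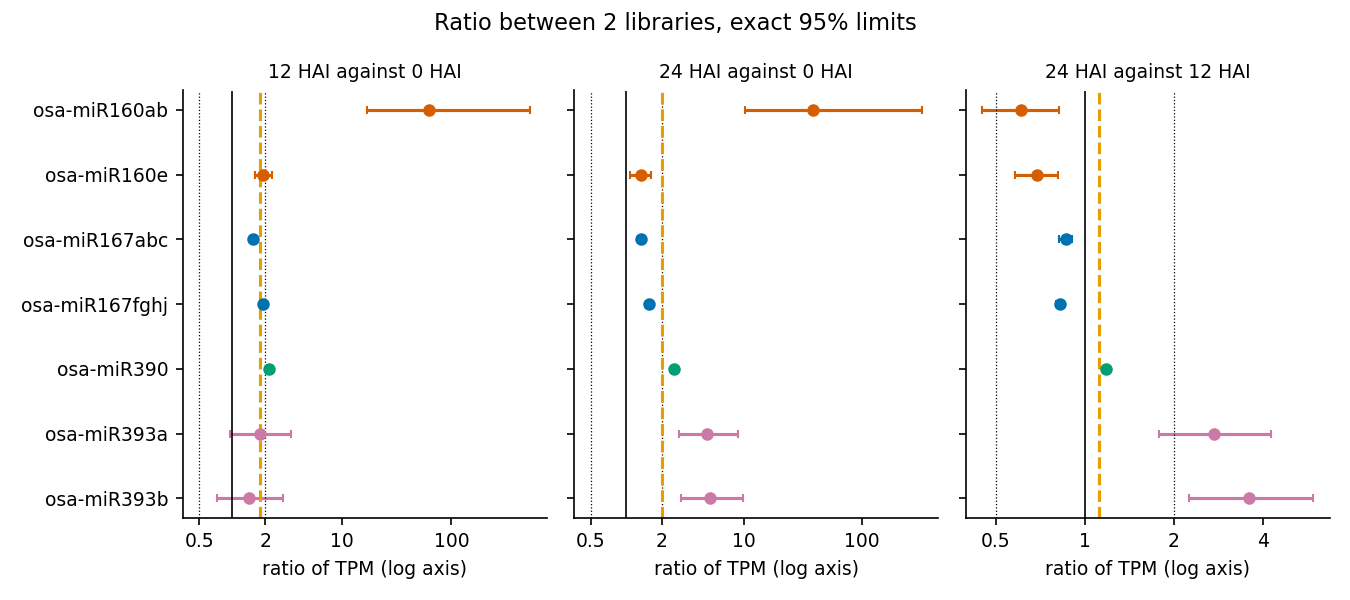
Ratio of TPM (log axis) between 2 libraries for the 7 members, with bars for exact 95% limits, a solid line at 1, dotted lines at 0.5 and 2, and a dashed line at the median of all miRNAs (1.78, 2.01 and 1.12). The miR160 and miR167 members lie left of 1 in the comparison of 24 with 12 HAI, and the miR393 members lie right of the dashed line.

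**Figure D4:**
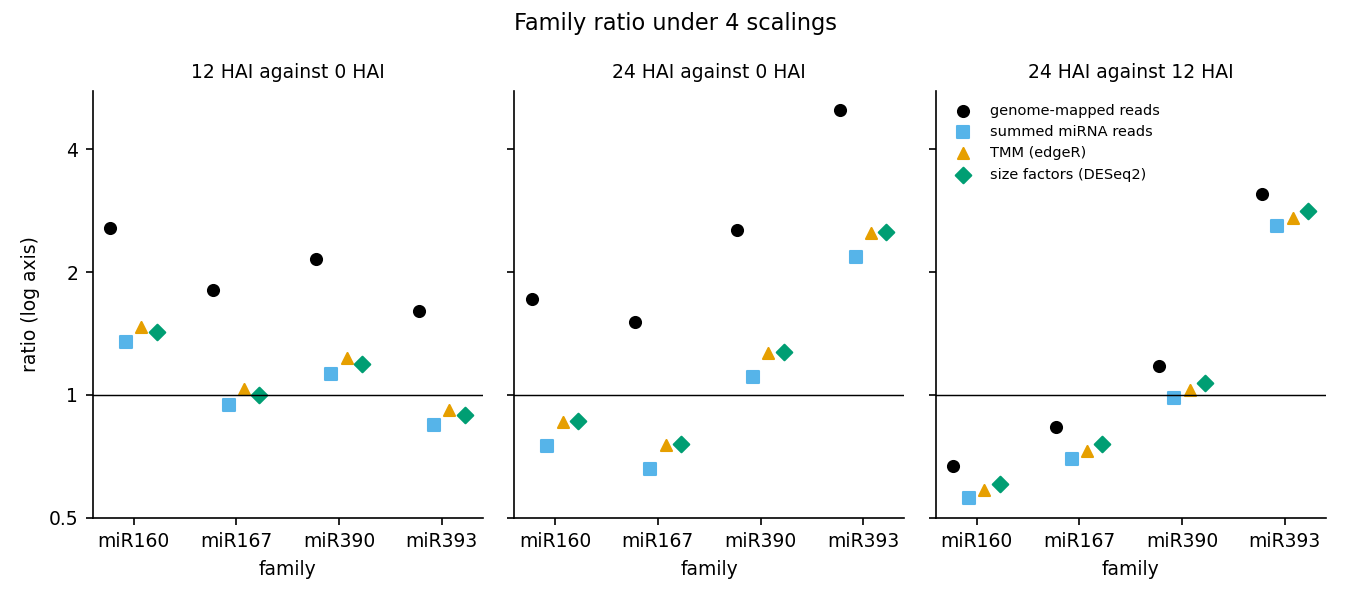
Ratio of the summed reads of each family (log axis) in the 3 comparisons under 4 scalings. miR393 lies above 1 in both comparisons with 24 HAI under each scaling, while miR160 and miR167 cross 1 in the comparison of 24 with 0 HAI.

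Ratios between the families in 1 library do not depend on the scaling. For each read of miR167, the 0, 12 and 24 HAI libraries held 1.08, 1.29 and 1.82 reads of miR390. The odds of a miR167 read against a miR390 read at 24 HAI were 0.594 of those at 0 HAI (exact conditional 95% limits, 0.571–0.619). miR160, of which 6.03 reads were counted per miR393 read at 0 HAI, had 9.64 per miR393 read at 12 HAI and 2.07 at 24 HAI. These odds at 24 HAI were 0.215 of those at 12 HAI (0.151–0.305). The odds of a miR160 read against a miR167 read were 1.42 times as high at 12 HAI as at 0 HAI (1.20–1.69) and 0.801 times as high at 24 HAI as at 12 HAI (0.691–0.926). Over the whole day their odds ratio was 1.14, with limits of 0.942 to 1.38 that include 1. In these ratios miR160 pools osa-miR160e with osa-miR160ab, the opposite strand of other hairpins, at 2, 146 and 69 reads. In TPM, osa-miR160e alone had a ratio of 1.92 for 12 to 0 HAI, beside 1.81 for miR167. For 24 to 0 HAI these ratios were 1.32 and 1.51. The odds of osa-miR160e alone against miR167 were not tested.

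In TPM, miR160 and miR167 were highest at 12 HAI and miR390 and miR393 at 24 HAI. The highest TPM was found at 12 HAI for 4 of the 7 members, the miR160 and miR167 sequences, and at 24 HAI for 3. Among all 289 miRNAs, the highest TPM was at 12 HAI for 34.6% and at 24 HAI for 62.3%. In class I of the table, the conserved families, 12 of the other 13 families were highest at 24 HAI and 1, miR162, was highest at 12 HAI, with a ratio of 24 to 12 HAI of 0.894 (0.816–0.979). The ratio of 24 to 12 HAI had a median of 1.31 over these 13 families, and 10 were called higher and 1 lower by the exact binomial test. The difference between the lists was not tested.
The time of the highest value held for the miR160 sequences (12 HAI) and the miR393 sequences (24 HAI) under the summed miRNA reads, TMM and DESeq2. It moved to 0 HAI for osa-miR167abc under all 3 and for osa-miR167fghj under the summed miRNA reads, which also moved osa-miR390 to 12 HAI. Relative to the summed miRNA reads, the limits of osa-miR167fghj for 12 to 0 HAI (0.960–1.02) include 1. So do those of osa-miR390 for 24 to 12 HAI (0.962–1.002). Under the 3 scalings, taken up after the data were seen, 45.7%, 36.3% and 37.7% of all miRNAs were highest at 0 HAI, as were 5, 4 and 4 of the 13 other class I families. miR164, which in Arabidopsis acts on NAC1, a factor of auxin-dependent lateral root formation, had 36, 62 and 52 reads. Its ratio of 24 to 12 HAI was 1.08 (0.732–1.59).

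Within the miR160 family the make-up of the reads differed between the dry and the imbibed embryo. At 0 HAI osa-miR160ab held 1.07% of the family's reads (exact 95% interval, 0.130–3.81%), then 26.1% at 12 HAI (22.5–30.0%) and 23.8% after a day (19.0–29.1%). The shares at 12 and 24 HAI overlapped, and both lay far above that at 0 HAI. At 0 HAI there were thus 92.5 reads of osa-miR160e for each of osa-miR160ab, and at 12 HAI there were 2.83. The odds of osa-miR160ab against osa-miR160e were 32.6 times as high at 12 HAI as at 0 HAI (8.70–275), with an adjusted p of 2.01e-17 from Fisher's exact test over the 23 within-family pairs of the known table. From 12 to 24 HAI the odds ratio was 0.883 (0.625–1.24, adjusted p = 0.582 from Fisher's exact test). These sequences come from different hairpins and from opposite arms, and osa-miR160e may hold reads of the other hairpins, so locus and strand cannot be told apart in this shift.

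In the miR167 family the shift was small. In dry embryos osa-miR167abc held 26.5% of the family's reads (25.5–27.5%), against 22.8% at 12 HAI (22.2–23.5%) and 23.6% at 24 HAI (22.8–24.5%). The odds of osa-miR167abc against osa-miR167fghj were 0.821 times as high at 12 HAI as at 0 HAI (0.769–0.876, adjusted p = 8.51e-09 from Fisher's exact test). They were 1.04 times as high at 24 HAI as at 12 HAI (0.984–1.11, adjusted p = 0.210 from Fisher's exact test). The miR393 sequences stayed near equal numbers, with osa-miR393a at 51.6% (33.1–69.8%), 56.9% (43.2–69.8%) and 50% (41.4–58.6%) of the reads. The odds ratio of 24 to 0 HAI was 0.938, and its limits of 0.398 to 2.20 leave room for a change of over 2-fold in either direction. Differences of this kind were common in the table. Of all 23 within-family pairs, Fisher's exact test called 69.6% for 12 over 0 HAI, 65.2% for 24 over 0 HAI and 56.5% for 24 over 12 HAI. In these comparisons it called 2, 2 and 0 of the 3 pairs among the members.

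**Figure D5:**
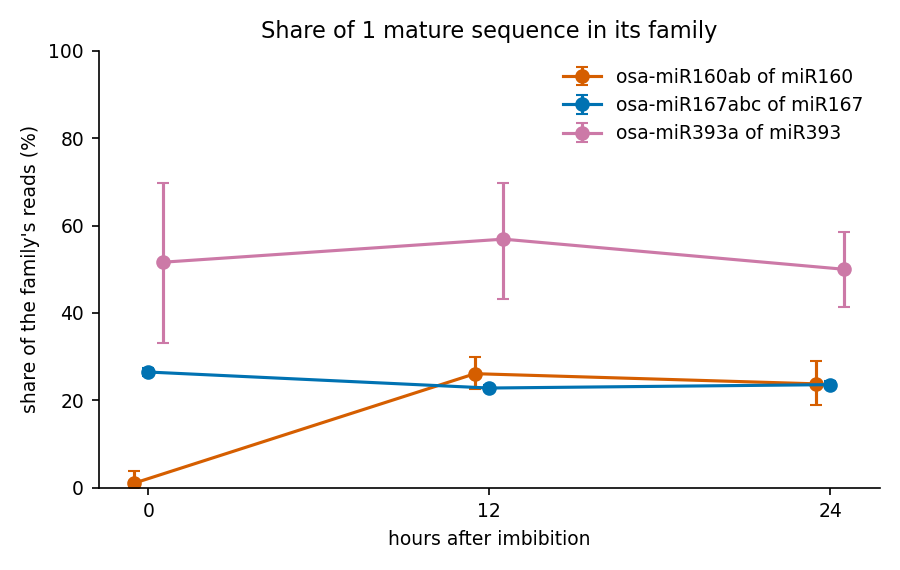
Share of 1 mature sequence in the reads of its family (%) at 0, 12 and 24 HAI, with exact 95% intervals, where points are set slightly apart on the x axis. The share of osa-miR160ab lies at 1.07% at 0 HAI and at 26.1% and 23.8% in the imbibed embryos, and the other shares move far less.

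Predicted miRNAs were listed on the opposite arm of 3 member hairpins, and their sequences are shown with bases 2 to 8 in capitals because they are the strands that pair with members.
OsmiR-111: tCATGCGAtccttttggaggc
OsmiR-44: tTAGATCAtgctgtgacagtt
OsmiR-126: tCATCCGGcagcttcatcttc
OsmiR-111 lies on chr1:2309156-2309176, minus strand, on the 3p arm of osa-MIR393a, and runs 1 base past the listed precursor. It had 11, 50 and 97 reads at 0, 12 and 24 HAI, against 16, 33 and 70 of osa-miR393a from the 5p arm. Its ratio of 24 to 0 HAI in TPM was 9.75 (5.22–20.2), and the odds of the 3p against the 5p strand were 2.01 times as high at 24 HAI as at 0 HAI, with limits of 0.818 to 5.10 that include 1. OsmiR-126, on chr3:3347738-3347758, plus strand, also runs past its listed precursor, osa-MIR167g, which ends at base 3347755. OsmiR-44 on osa-MIR167b had 5, 12 and 9 reads, and OsmiR-126 on osa-MIR167g had 10, 18 and 21, far fewer than the miR167 sequences opposite them. The odds of either against its member differed between no pair of libraries beyond the limits. The reads of osa-miR167abc pool 3 precursors and those of osa-miR167fghj 4, so neither comparison gives the strand ratio of a single hairpin. All 3 predicted miRNAs lacked an entry for a complementary strand in the table of predicted miRNAs, and the 7 members lacked one in the table of known miRNAs. These sequences were singled out by their position on member hairpins.

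The families whose profile came nearest were found by dividing the summed TPM of each family by its highest value and taking the largest gap over the 3 libraries, among 33 other families with at least 100 reads. The profile of miR167 was 0.554, 1 and 0.834 of its highest value at 0, 12 and 24 HAI. miR535 came within 0.0148 of it and miR1878 within 0.0174. miR390, at 0.395, 0.851 and 1, lay nearest to miR820 (0.0335) and miR1876 (0.0461). miR393, at 0.200, 0.322 and 1, had wider gaps, the closest families being miR169 (0.115) and miR529 (0.145). Summed over both sequences, miR160 lay at 0.389, 1 and 0.667, and osa-miR160e alone at 0.521, 1 and 0.688 of its own highest value. The closest families to the summed miR160 were miR535 and miR1878 as well, each with a gap of 0.181, wider than those of miR393. Such gaps rest on 3 libraries and describe them only.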

How the data were processed

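Small RNA from rice embryos at 0, 12 and 24 HAI was sequenced by the authors, with 1 library per time point. The read counts were made by the authors by filtering reads, mapping with Bowtie to MSU 7.0 and discarding structural RNAs of Rfam 11. Known miRNAs were matched to miRBase 21, where 2 mismatches were tolerated, and others were predicted with miRDeep2. TPM, also deposited by the authors, equalled reads per 1000000 genome-mapped reads in all 407 rows. The folding energy, used here as a score in kcal/mol, was computed by the authors with Mfold 3.2. Known miRNAs were read from the first of 2 identical copies of their table. A mature sequence repeats its reads for each precursor and was counted once.

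The members and lists were chosen with earlier results of these data known. Since no group has replicates, no count model with dispersion was fitted, and edgeR 4.0.16 and DESeq2 1.42.0 (R 4.3.3) gave scaling factors alone. Ratios have exact conditional 95% limits. Reads of 2 libraries were compared with an exact conditional binomial test, and pairs of 1 family with Fisher's exact test, both two-sided with Benjamini-Hochberg adjustment over all miRNAs or all pairs and a threshold of 0.05. Families were summed and adjusted over 42 families. All 7 members were named, with the 2 nearest families by profile, miR164, and predicted miRNAs that share a seed or hairpin with a member. Alternatives were 3 scalings, 1 read added, a minimum of 10 reads, limits past 2-fold, every precursor counted and RNAfold 2.7.2 energies. Python 3.11.15 with scipy 1.17.1 was used.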

Additional observations from a re-analysis of the deposited data

How the results depend on the processing

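The scaling of the libraries moved more results than any other choice. Of 187 recomputed values, 146 were counted as unchanged. Among these, ratios kept their direction and their call by the test, and counts or ranks moved by no more than 1.5 times. A ratio could be counted so and still cross 2-fold, as osa-miR390 did for 12 to 0 HAI. Of the others, 30 turned their direction, 4 lost their call and 7 counts or ranks moved by over 1.5 times. A turn was counted from the ratio alone, and the limits of some turned ratios include 1. Adding 1 read to every count, counting every precursor, the minimum of 10 reads and the energies of RNAfold turned none of the values they were run on. Among all miRNAs called between 24 and 0 HAI, 96.8% were higher in TPM, against 43.9% with the summed miRNA reads, 56.6% with TMM and 57.1% with DESeq2. Between 12 and 0 HAI this share was 98.6%, 53.0%, 62.3% and 60.3%, and between 24 and 12 HAI it was 70.7%, 40.2%, 50% and 56.1%.

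Between 12 and 0 HAI, 1 member in place of 2 was past 2-fold with each of the 3 scalings. Between 24 and 0 HAI, 3 members in place of 4 were past 2-fold with each of them. Between 24 and 12 HAI it was 1 in place of 2 when the limit nearest 1 had to pass. The ratio of miR167 for 12 to 0 HAI was 0.945 with the summed miRNA reads and 1.0005 with DESeq2 (not called), and that of miR393 was 0.841, 0.919 and 0.891 with the summed miRNA reads, TMM and DESeq2. The limits of miR393 include 1 with each of them, at 0.535–1.35, 0.584–1.47 and 0.567–1.43. For 24 to 0 HAI, miR160 turned to 0.749, 0.856 and 0.862 and miR167 to 0.658, 0.752 and 0.757 in that order. The limits of miR160 include 1 with TMM (0.710–1.03) and DESeq2 (0.715–1.04). For 24 to 12 HAI, miR390, as family and as osa-miR390, turned to 0.982 with the summed miRNA reads, with limits of 0.962 to 1.002 that include 1.

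In the same order, single members turned for 12 to 0 HAI in osa-miR167abc (0.814, 0.889 and 0.862) and osa-miR393b (0.749, 0.818 and 0.794). osa-miR393a turned with the summed miRNA reads (0.927) and DESeq2 (0.982), and osa-miR167fghj with the summed miRNA reads (0.992). The limits of these turned ratios of osa-miR393a, osa-miR393b and osa-miR167fghj include 1, whereas those of osa-miR167abc do not. osa-miR160e lost its call for 12 to 0 HAI, at 1.004, 1.10 and 1.06. For 24 to 0 HAI, osa-miR160e turned to 0.577, 0.660 and 0.664, osa-miR167abc to 0.586, 0.670 and 0.675, and osa-miR167fghj to 0.683, 0.781 and 0.787. The cause of these turns is the denominator, since each scaling moves all ratios of a comparison by 1 factor. The median rank of the members was 31, 32 and 40 among known sequences at 0, 12 and 24 HAI, and 49, 50 and 63 among all named miRNAs.

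No paired analysis was possible because each time point has 1 library, and no library was left out. Depth limits the miR393 members and osa-miR160ab most, at 2 to 16 reads in the 0 HAI library.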
